A study of Mus musculus with 6 samples.

Results

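The cytosolic ribosome is built from a large and a small subunit, each an assembly of ribosomal RNA and many proteins. The small subunit decodes the mRNA, the large subunit joins the amino acids, and an acidic stalk on the large subunit recruits the translation factors. The genes of these proteins are transcribed in nearly every cell, and their mRNAs begin with a stretch of pyrimidines, the 5′TOP tract, through which mTORC1 signaling adjusts how strongly they are translated. A measurement of RNA on ribosomes therefore reports on these genes both as parts of the apparatus and as translated messages.

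The cytosolic ribosomal protein genes were followed in RNA retrieved from the ribosomes of skeletal muscle endothelial cells. A gene was taken as a member when its symbol was Rpl or Rps followed by a digit, or was Rplp0, Rplp1, Rplp2 or Rpsa. Rows marked as pseudogenes with -ps (6 rows) and the S6 kinase genes (10 rows) were left out. This gave 87 of the 24062 genes in the table, 52 of the large and 35 of the small subunit. Among them, 10 are paralogs or other genes with a similar name, such as Rpl3l, Rpl36al and Rps27rt, and Rps19bp1 in that group encodes a binding protein and not a ribosomal protein.

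The libraries came from gastrocnemius and soleus muscle of ovariectomized GFP-L10aEC mice, which carry the ROSA26 allele CAG-EGFP/Rpl10a with birA, and in which Cre driven by the VE-cadherin promoter switches on a GFP-tagged form of the ribosomal protein L10a in endothelial cells. Ribosomes were precipitated with an antibody to GFP, a method called TRAP. The study describes the mice of both groups as ovariectomized females with the same alleles. One group received vehicle pellets (placebo in the labels) and the other 17β-estradiol (E2) pellets, both for 4 weeks, and there were 3 libraries of each. The labels give an age of 4 weeks at treatment, and the study's methods give an older age at ovariectomy. The label of a library names 2 mice, the sources do not say whether their tissue was pooled, and the study's methods give more biological replicates per group than there are libraries. The n of 3 therefore counts libraries, and p-values measure the spread between libraries, which may be technical in part.

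The libraries were shallow and the vehicle group was not uniform. Totals ranged from 84823 to 451034 counts, and 1 count was worth 11.8 CPM (counts scaled to the same total in every library) in vehicle 3 and 2.22 CPM in vehicle 2. Pearson's r of log2 CPM across genes was 0.957 between vehicle 1 and vehicle 2, 0.630 and 0.634 between these and vehicle 3, and 0.735 to 0.824 between vehicle 3 and the E2 libraries. Vehicle 1 and vehicle 2 also held 40 and 63 counts of Y-linked genes, and the other 4 libraries held 0, although the study's methods name female mice. No E2 library held such counts, so a difference that goes with them cannot be told apart from one of E2. A list of 18 endothelial markers summed to 4979, 6452 and 1497 CPM in the vehicle libraries and to 969, 1697 and 2363 CPM in the E2 libraries. Most of this sum was Cd36, a fatty acid transporter also made by muscle fibers and adipocytes, with 3812, 5197 and 1108 CPM in vehicle and 786, 1234 and 1592 CPM in E2. Of these markers, 5 could be tested, and their median log2 fold change was -1.31. At an unadjusted p of 0.05 or less 3 were lower, and 1 was called lower, Fabp4 (-1.81 ± 0.53, SE, adjusted p = 0.0499, edgeR). Cdh5, the gene of VE-cadherin, was not lower (0.13 ± 0.56, SE). It had 187, 290 and 165 CPM in vehicle and 47.6, 186 and 373 CPM in E2. Kdr, the main VEGF receptor, had no count in vehicle 3. The 22 skeletal muscle fiber markers summed to between 76086 and 127331 CPM in all libraries, so that RNA of muscle fibers was abundant in the precipitates. Changes in the share of cells and in RNA per cell cannot be told apart in such libraries. Values without vehicle 3, and without vehicle 1 and vehicle 2, are given below beside the results that they move most.

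Ribosomal protein transcripts were present at very unequal levels. A count was found for 85 of the 87 members, with Rpl10l and Rps19bp1 the exceptions, and the median member had 72 counts over all 6 libraries. Together the members took 36457 of 1350174 counts, and 70.1% of these fell on 6 genes. Rps3a1 had 8974 counts, Rps23 had 6138, Rpl24 had 4000, Rpl23a had 2684 and Rpl27 had 2013. The counts of the members thus differed far more than the copy numbers of most of their proteins in a ribosome.

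The same genes led when levels were taken per length. In mean CPM per kilobase of mRNA over all libraries, the small-subunit gene Rps3a1 reached 6467 and Rps23, whose protein sits at the decoding center, reached 5010. On the same scale Rpl24, from the face of the large subunit that meets the small one, reached 3487, Rpl23a, which lies at the exit of the nascent chain tunnel, 2588, and Rpl27 2558. Rpl36a (1453) and Rpl32 (988) completed the highest 5 of the large subunit, and Rps13 (447) was also among the highest 5 of the small subunit. The median of the 85 members with a count was 70.9 CPM per kilobase. Levels per length moved with sequence that members share with other genes. The share of 75-base words in a member's mRNA that also occur in another annotated gene was 60.2% for Rps3a1, 78.1% for Rpl23a and 36.3% for Rps23, against a median of 18.3%, and its Spearman correlation with CPM per kilobase was 0.40 across 85 genes, which are not independent replicates. Reads from such words may be assigned to a copy or be lost, so the levels of these genes are uncertain. Fold changes showed no such relation (Spearman -0.01 across 45 genes).

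The mean share of ribosomal protein RNA was higher in E2, with overlapping libraries over all members and separate ones for the small subunit. The share of each library's counts taken by all members was 2.41%, 2.77% and 1.46% in the vehicle group and 2.50%, 3.61% and 2.71% in the E2 group. In E2 2 this share had a 95% Wilson interval of 3.53% to 3.70%, and in vehicle 3, the shallowest library, of 1.38% to 1.54%. These intervals cover counting error only. As summed CPM this was 22145 ± 6768 in vehicle and 29382 ± 5937 in E2 (SD, n = 3 libraries), a ratio of 1.33 with overlapping libraries. The log2 ratio of these means was 0.41, and it was 0.18 without vehicle 3 and 1.01 without vehicle 1 and vehicle 2. Small-subunit genes summed to 12547, 13123 and 9302 CPM in vehicle and to 16588, 20077 and 14999 CPM in E2, so that every E2 library was above every vehicle library, with a ratio of the means of 1.48. Large-subunit genes summed to 11581, 14578 and 5305 CPM in vehicle and to 8370, 16052 and 12059 CPM in E2. The ratio of the means was 1.16 for the large subunit and the libraries overlapped. No test is given for sums over a set of genes that was chosen with results of these data known.

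**Figure D1:**
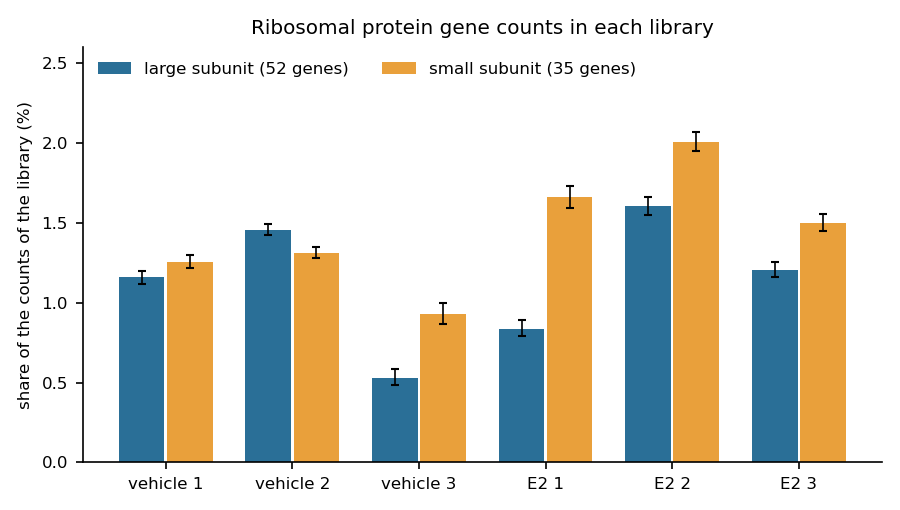
Share of all counts, in percent, that fell on genes of the large (blue) and small (orange) ribosomal subunit in each of the 6 libraries, with 95% Wilson intervals as bars, which cover counting error only. The small-subunit share was 0.930% to 1.31% in vehicle and 1.50% to 2.01% in E2, while the large-subunit shares of the groups overlapped.

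The sums were set by a few abundant genes. Without the 6 most counted members, the remaining 81 summed to 6613, 7795 and 5128 CPM in vehicle and to 6504, 11756 and 9457 CPM in E2, a ratio of the means of 1.42 with overlapping libraries. The ratio of large-subunit to small-subunit CPM was 0.923, 1.11 and 0.570 in vehicle and 0.505, 0.800 and 0.804 in E2 over all members. Without the 6 genes the same ratio was 4.09, 3.72 and 2.82 in vehicle and 3.20, 2.70 and 2.67 in E2. The groups overlapped in both forms. The small-subunit libraries also overlapped without these genes, with 1431 ± 192 CPM in vehicle and 2433 ± 822 CPM in E2 (SD, n = 3).

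Gene by gene, more ribosomal protein genes rose with E2 than fell. Of the 87 members, 45 passed the filter on low counts, 27 of the large and 18 of the small subunit. At an adjusted p below 0.05 (quasi-likelihood test of edgeR, adjusted by Benjamini-Hochberg over 1682 genes), 8 members were higher, 4 in each subunit, against 2.50% of all genes tested. A single member was lower, Rplp2, against 2.97% of all genes. At an unadjusted p of 0.05 or less, the threshold used in the study, 21 members were higher, which is 46.7% of those tested against 10.5% of all genes, and 12 of them belonged to the large and 9 to the small subunit. By the same threshold 2 members were lower, Rplp2 and Rps25, against 15.1% of all genes. Every E2 library was above every vehicle library in 15 tested members, against 8.68% of all genes. No tested member had every E2 library below every vehicle library, against 12.8% of all genes.

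The median log2 fold change, E2 over vehicle, was 0.96 over the 45 tested members, of which 37 were above 0, and 0.0054 over all genes tested. Over the 11 members with 75 or more counts per library on average it was 0.13, with 7 above 0 and 4 below. By subunit it was 0.99 for the large and 0.87 for the small subunit. The difference of 0.12 between these medians changed sign in 8 of 18 alternatives, for example to -0.55 without the filter on low counts and to -0.26 without E2 2, so that no order of the subunits was detectable. Medians and counts describe only genes that passed the filter, and a gene high in only 1 group can pass through that group.

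**Figure D2:**
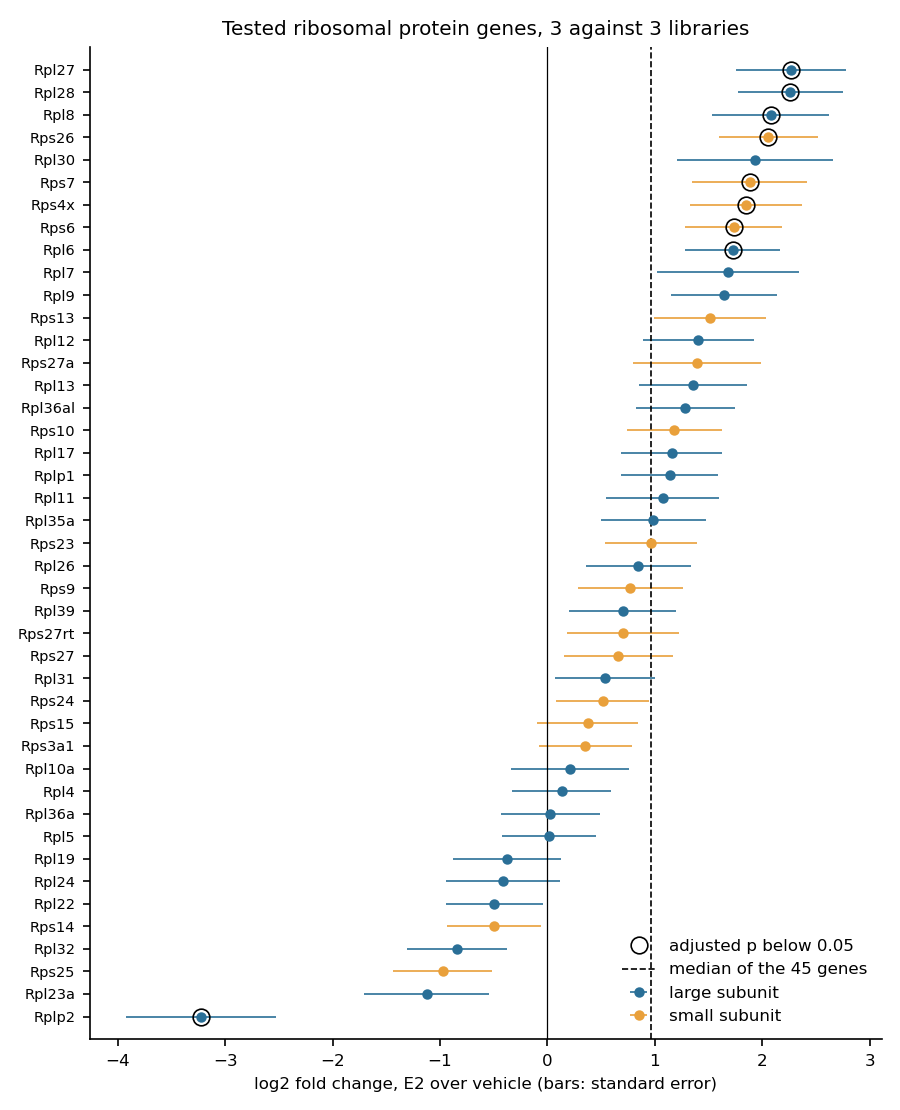
Log2 fold change, E2 over vehicle, with its standard error for 43 of the 45 tested ribosomal protein genes (3 libraries in each group), in blue for the large and orange for the small subunit. Open circles mark the 9 genes with an adjusted p below 0.05, 8 at the top and Rplp2 at the bottom, and the dashed line is the median of 0.96 over all 45.

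Among large-subunit genes, Rpl27 and Rpl28 rose most. Rpl27 lies at chr11:101442298-101445529 (plus strand, mm10) and had 485, 927 and 342 CPM in vehicle and 1429, 3329 and 2910 CPM in E2. The lowest E2 library was above the highest vehicle library, and the log2 fold change was 2.27 ± 0.51 (SE, adjusted p = 0.0204 by edgeR's quasi-likelihood test). Its increase stood at 2.12 without vehicle 3 and at 3.01 without vehicle 1 and vehicle 2. Rpl28 (chr7:4792874-4795066, plus strand), whose protein is found in eukaryotic but not in bacterial ribosomes, had 253, 295 and 424 CPM in vehicle and 873, 2040 and 1343 CPM in E2. These groups did not overlap either, and the log2 fold change was 2.26 ± 0.49 (SE, adjusted p = 0.0183, edgeR). An exon of Ube2s lies opposite Rpl28 over 183 bases, and Ube2s had only 12 counts in all libraries against 1027 of Rpl28.

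Both genes were well counted, with 29 or more counts in every library. The other called genes of the large subunit were lower in level. Rpl6 (chr5:121204481-121209241, plus strand) had 100, 155 and 130 CPM in vehicle and 310, 478 and 373 CPM in E2, a log2 fold change of 1.72 ± 0.45 (SE, adjusted p = 0.0376, edgeR). Rpl8 (chr15:76904078-76906314, plus strand) encodes a protein close to the site where peptide bonds form. It had 5, 13 and 3 counts in vehicle and 7, 15 and 30 counts in E2, or 17.3, 28.8 and 35.4 CPM against 55.6, 75.6 and 149 CPM. Its log2 fold change was 2.08 ± 0.55 (SE, adjusted p = 0.0376, edgeR). Neither gene's groups overlapped in CPM, although the values of Rpl8 rest on few reads.

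In the small subunit, Rps26, Rps7, Rps4x and Rps6 were called. Rps26 (chr10:128624534-128626747, minus strand), whose protein contacts the mRNA where it leaves the ribosome, had 34.6, 55.4 and 23.6 CPM in vehicle and 119, 242 and 119 CPM in E2. The log2 fold change was 2.06 ± 0.46 (SE, adjusted p = 0.0204, edgeR) with no overlap of the libraries. Rps6 (chr4:86854660-86857412, minus strand), the substrate of the S6 kinases below mTORC1, had 65.8, 95.3 and 94.3 CPM in vehicle and 183, 282 and 289 CPM in E2. Its log2 fold change was 1.73 ± 0.45 (SE, adjusted p = 0.0376, edgeR), again without overlap. Both genes stood higher in each E2 library than in any vehicle library.

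Rps7 (chr12:28630854-28635953, minus strand) was near the limit of detection, with 7, 9 and 2 counts in vehicle and 7, 17 and 16 counts in E2. In CPM the groups were 22.6 ± 2.31 and 73.6 ± 15.9 (SD, n = 3) and did not overlap, and the log2 fold change was 1.88 ± 0.53 (SE, adjusted p = 0.0467, edgeR). Rps4x (chrX:102184941-102189394, minus strand), the X-linked gene of protein S4, had 45.0, 64.3 and 47.2 CPM in vehicle and 55.6, 227 and 229 CPM in E2. E2 1 lay within the vehicle range, so Rps4x was the only called increase with overlapping libraries (log2 fold change 1.85 ± 0.52, SE, adjusted p = 0.0457, edgeR).

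**Figure D3:**
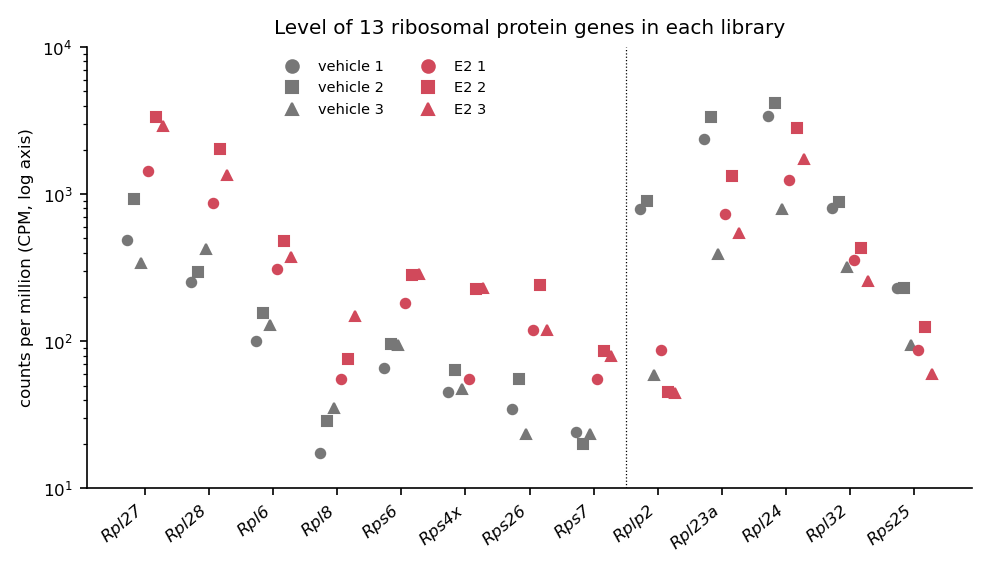
Level in CPM, on a log axis, of 13 ribosomal protein genes in each library (gray, vehicle; red, E2; circle, square and triangle, replicate 1, 2 and 3). Left of the dotted line are the 8 called increases, where apart from Rps4x every E2 library lies above every vehicle library. Right of it are 5 genes in which vehicle 1 and vehicle 2 are the highest. In these, vehicle 3 lies within the range of the E2 libraries, or below it in Rpl23a and Rpl24.

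The 8 increases had the same direction whichever vehicle libraries were used. They were chosen by the fit of all 6 libraries, and in all but Rps4x the groups did not overlap. Their direction could hardly have turned, so this is no independent support. Without vehicle 3, their log2 fold changes were between 1.84 (Rpl6) and 2.61 (Rpl28). Against vehicle 3 alone, which assumes that this library varies like the E2 group, they were between 1.53 (Rps6) and 3.01 (Rpl27). The calls depended more on the libraries than the sizes did. Without vehicle 1, E2 2 or E2 3 no member was called higher, without vehicle 2 there was 1, without E2 1 there were 5, and without vehicle 3 there were 28. Over all genes, 477 of 2162 were called higher and 526 lower without vehicle 3, and 6 to 15 higher when any other library was left out. Against vehicle 3 alone 3 members were called higher, Rpl27, Rpl12 and Rpl13 (adjusted p = 0.0010, 0.0208 and 0.0317, edgeR), with 6 of all 1907 genes called higher. In that fit 50 of the 54 members tested were above 0, with a median of 1.03 against 0.11 over all genes. All of them share vehicle 3, the shallowest library with the lowest summed CPM of the members, so they are not separate observations.

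Rplp2 fell, and this result rested on vehicle 1 and vehicle 2. Rplp2 (chr7:141447370-141451585, plus strand) encodes an acidic protein of the stalk that recruits elongation factors. It had 230, 404 and 5 counts in vehicle and 11, 9 and 9 counts in E2, which is 796, 896 and 58.9 CPM against 87.3, 45.3 and 44.8 CPM. Vehicle 3 therefore lay inside the range of the E2 libraries. The log2 fold change was -3.22 ± 0.70 over all libraries (SE, adjusted p = 0.0183, edgeR), -3.65 without vehicle 3, and 0.051 ± 0.88 without vehicle 1 and vehicle 2 (SE, adjusted p = 0.988, edgeR). The call was lost when any E2 library was left out.

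The other genes of the stalk had no such pattern. Rplp1, the partner of Rplp2 in the stalk dimer, had 96.9, 109 and 153 CPM in vehicle and 175, 242 and 269 CPM in E2, with no overlap and a log2 fold change of 1.14 ± 0.45 (SE, adjusted p = 0.125, edgeR). Rplp0, the protein on which the dimers sit, had 5, 11 and 2 counts in vehicle and 1, 6 and 5 counts in E2 and was too low to be tested. Rpl12, at the base of the stalk, had 72.7, 146 and 11.8 CPM in vehicle and 159, 257 and 209 CPM in E2, where the vehicle 3 value is a single count. Its log2 fold change was 1.40 ± 0.52 (SE, adjusted p = 0.101, edgeR).

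Other members were also highest in vehicle 1 and vehicle 2, among them Rpl23a, Rpl24, Rpl32 and Rps25. Rpl23a had 2378, 3323 and 389 CPM in vehicle and 738, 1320 and 547 CPM in E2, a log2 fold change of -1.13 ± 0.58 (SE, adjusted p = 0.227, edgeR). Rpl24 had 3403, 4184 and 790 CPM in vehicle and 1247, 2821 and 1721 CPM in E2, with a log2 fold change of -0.41 ± 0.53 (SE, adjusted p = 0.667, edgeR). In both genes vehicle 3 was the lowest library, so that the sign of the comparison depends on which vehicle libraries enter. Without vehicle 1 and vehicle 2 the log2 fold changes were 1.22 for Rpl23a and 1.37 for Rpl24. For Rpl32 and Rps25 the values were -0.84 and -0.97 over all libraries and 0.22 and 0.029 without these 2 libraries. These genes were picked for this pattern after their values had been seen, and no test is given for it.

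**Figure D4:**
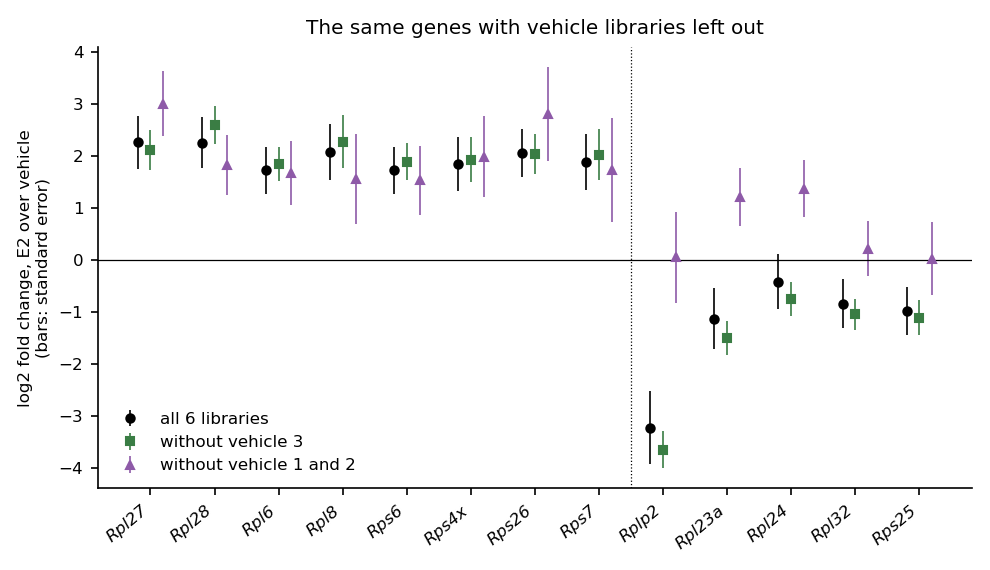
Log2 fold change, E2 over vehicle, with its standard error for the same 13 genes, from all 6 libraries (black circles), without vehicle 3 (green squares) and without vehicle 1 and vehicle 2 (violet triangles). The 8 increases, which were chosen by the fit of all 6 libraries, stay above 1.5 in every form. Rplp2 goes from -3.22 to 0.051, and Rpl23a and Rpl24 turn positive against vehicle 3 alone.

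Vehicle 3 had the lowest summed CPM of the members of all 6 libraries, for the large and for the small subunit. Gene by gene, its level was nearer to the mean of the E2 libraries than to that of vehicle 1 and vehicle 2 in 22 of the 45 tested members (48.9%), and in 1171 of all 1682 genes tested (69.6%). The endothelial marker sum of vehicle 3 also lay within the E2 range, as given above, and the part of this in the results was not tested.

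A second tier of 8 members was separated between the groups at an unadjusted p of 0.05 or less without passing the adjustment. These were Rpl9, Rpl12, Rpl13, Rpl36al, Rplp1, Rps10, Rps13 and Rps23, all higher in E2. Rpl9 came closest to the threshold, with 34.6, 44.3 and 70.7 CPM in vehicle and 79.4, 116 and 179 CPM in E2 (log2 fold change 1.64 ± 0.49, SE, adjusted p = 0.0562, edgeR). Rps13 had 65.8, 124 and 271 CPM in vehicle and 278, 494 and 348 CPM in E2, and the gap between the groups was narrow (log2 fold change 1.51 ± 0.52, SE, adjusted p = 0.0822, edgeR). Rps23, the most abundant of these genes, had 3331, 3756 and 3042 CPM in vehicle and 5122, 7016 and 5900 CPM in E2. Its vehicle libraries were close together and its log2 fold change was the smallest of the 8, at 0.96 ± 0.42 (SE, adjusted p = 0.160, edgeR). In the remaining 5, the log2 fold changes were between 1.14 (Rplp1) and 1.40 (Rpl12). Without vehicle 3, the 8 lay between 1.01 (Rps23) and 2.20 (Rps13) and all had an adjusted p below 0.05 (edgeR). That fit keeps only vehicle 1 and vehicle 2, which hold the Y-linked counts, and 477 of 2162 genes were called higher in it. The 8 genes were picked for separated libraries, so their direction is no further support. Against vehicle 3 alone they lay between 0.56 (Rps13) and 4.16 (Rpl12), and Rpl36al, at 1.71 without vehicle 3, stood at 0.66.

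The most abundant member of all was not called. Rps3a1 had 6994, 6957 and 3525 CPM in vehicle and 7623, 7228 and 5582 CPM in E2, with a log2 fold change of 0.35 ± 0.44 (SE, adjusted p = 0.653, edgeR).

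Members with roles outside the ribosome were mixed. Rpl5 and Rpl11 bind 5S ribosomal RNA and, when free, the p53 regulator Mdm2. Rpl5 had 166, 255 and 236 CPM in vehicle and 214, 171 and 209 CPM in E2 (log2 fold change 0.016 ± 0.44, SE), and its groups overlapped throughout. Rpl11 had 114, 90.9 and 330 CPM in vehicle and 222, 408 and 323 CPM in E2 (log2 fold change 1.07 ± 0.53, SE, adjusted p = 0.206, edgeR), and vehicle 3 stood at the level of the E2 libraries. The log2 fold change of Rpl11 was 1.90 without vehicle 3 (adjusted p = 0.000176, edgeR) and 0.057 without vehicle 1 and vehicle 2. Rps27a, which is made as a fusion with ubiquitin, had 51.9, 17.7 and 70.7 CPM in vehicle and 23.8, 161 and 94.5 CPM in E2, with overlap (log2 fold change 1.39 ± 0.60, SE, adjusted p = 0.148, edgeR), and is among the 21 members higher at the unadjusted threshold. Its log2 fold change was 1.83 without vehicle 3 and 0.54 without vehicle 1 and vehicle 2. Rps19 (8 counts in all) and Rpsa, also known as the laminin receptor (68 counts), were too low to be tested.

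Rpl10a is the gene of the protein that carries the GFP tag. It had 10, 40 and 1 counts in vehicle and 9, 9 and 11 counts in E2, or 34.6, 88.7 and 11.8 CPM against 71.5, 45.3 and 54.7 CPM. The groups overlapped and the log2 fold change was 0.21 ± 0.55 (SE, adjusted p = 0.833, edgeR), with 0.059 without vehicle 3 and 2.28 against vehicle 3 alone, where it had 1 count. Reads of the tagged transgene and of the endogenous gene share the Rpl10a sequence and cannot be told apart in counts per gene.

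Paralogs mostly had fewer counts than their parent genes, and Rpl36al was the tested one separated between groups. Rpl36al had 111, 104 and 200 CPM in vehicle and 270, 378 and 244 CPM in E2, a log2 fold change of 1.28 ± 0.46 (SE, adjusted p = 0.0937, edgeR). Rpl36a, which encodes nearly the same protein, had 983, 794 and 401 CPM in vehicle and 540, 766 and 726 CPM in E2, a log2 fold change of 0.027 ± 0.46 (SE, adjusted p = 0.981, edgeR). Whether these genes differ in their response was not tested.

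Rpl3l, known as the striated muscle form of Rpl3, had 11, 39 and 4 counts in vehicle and 5, 8 and 5 counts in E2, and Rpl3 had 12, 22 and 0 counts in vehicle and 8, 5 and 13 counts in E2. Both were too low to be tested, with 72 counts of the muscle form and 60 of the general form in all. Rpl39l (2 counts), Rpl22l1 (4 counts), Rps27l (2 counts) and Rps4l (3 counts) were at the limit of detection. Rpl7l1 had 60 counts against 80 of Rpl7. Counts of Rps27 and Rps27rt differed by 1 count in vehicle 1 and were equal in the other 5 libraries, and Rpl34 matched the pseudogene row Rpl34-ps1 in every library. The same reads appear to have been entered for both rows in such pairs, so that Rps27 and Rps27rt are 1 measurement in the counts of members.

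The 42 members that were not tested held 1239 counts in all, and none had more than 83. In 25 of them the group mean CPM was higher in E2 and in 15 it was lower. Every E2 library was above every vehicle library in Rpl18, Rpl21, Rps18 and Rps2, and below in Rps4l, where each of the 3 vehicle counts is a single read. These 4 of 42 are near the 8.68% of all tested genes. At this depth, a change in most of these genes was not detectable. On the genome, 18 members share 50 or more exonic bases with a gene on the opposite strand, and without them 7 of the 8 calls were left.

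Genes that work with these proteins were followed as lists. Of 22 other 5′TOP mRNAs, such as those of elongation factors, 12 were tested and none passed the adjusted p (edgeR), with 2 higher and 1 lower at an unadjusted p of 0.05 or less and a median log2 fold change of 0.089. Eef1a1, the elongation factor that delivers aminoacyl-tRNA, had a log2 fold change of 1.43 ± 0.57 (SE, adjusted p = 0.127, edgeR) and Eef1b2, its exchange factor, -1.07 ± 0.44 (SE, adjusted p = 0.131, edgeR). Eef2, the translocation factor and the most counted gene of the list, had 0.23 ± 0.46. Fau, a ribosomal protein made as a fusion with a ubiquitin-like protein and outside the name rule, had -0.065 ± 0.61.

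Of 38 ribosome biogenesis genes in the table, 10 were tested, with none higher, 1 lower at the adjusted p and a median of -0.41. The lower gene was Bms1, a GTPase of small-subunit maturation, with 56, 83 and 7 counts in vehicle and 4, 6 and 11 counts in E2 (log2 fold change -1.85 ± 0.50, SE, adjusted p = 0.0380, edgeR). None of 15 genes of RNA polymerase I transcription was counted well enough to be tested. Of 21 genes of mTORC1 signaling 4 were tested and none was called, with 0 also at an unadjusted p of 0.05 or less and a median of -0.51. Only 4 of 77 mitochondrial ribosomal protein genes were tested. None was called, 1 was higher at the unadjusted threshold, Mrpl48 with 1.51 ± 0.53 (SE), and their median was -0.017. The difference between the ribosomal protein genes and these lists was not tested.

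The promoter sequences were searched for pyrimidine runs at the start, where the 5′TOP tract of these mRNAs begins. RefSeq windows of 300 bases (250 before and 50 after the start, GRCm38.p6) were at hand for 66 of the 87 members, in 78 windows. The stretches of 6 called genes show how far the runs vary. Rpl6 and Rps4x, with longest runs of 6 and 4, are not printed, and Rpl8 had no window. Each line gives the 30 bases around the annotated start, 15 on either side, 5′ to 3′ on the strand of the gene, with the longest run of C or T in capitals, or the first of them where runs tie.
Rpl28 (chr7:4792950-4792979, plus strand): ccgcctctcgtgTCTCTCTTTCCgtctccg
Rps26 (chr10:128626492-128626521, minus strand): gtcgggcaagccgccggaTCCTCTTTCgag
Rps6 (chr4:86857353-86857382, minus strand): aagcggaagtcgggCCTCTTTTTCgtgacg
Rpl27 (chr11:101442230-101442259, plus strand): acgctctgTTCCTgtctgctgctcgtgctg
Rps7 (chr12:28635939-28635968, minus strand): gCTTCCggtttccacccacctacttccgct
Rplp2 (chr7:141447636-141447665, plus strand): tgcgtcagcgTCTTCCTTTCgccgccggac

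Long tracts were found in genes of either direction. Rpl28, which rose, has a run of 11 pyrimidines and Rplp2, which fell, a run of 10, while Rpl27 and Rps7, which rose, have no run longer than 5 in these stretches. Over all member windows, a run of 8 or more occurred in 28 of 78 (35.9%), against 12.0% of 32851 windows of all genes, and the median longest run was 6 against 4 bases, so that most member windows held no long run. The median log2 fold change was 0.74 over the 14 tested members with such a run and 0.90 over the 20 with shorter ones, with 3 and 4 called increases. Both medians were above that of all genes. An annotated start may lie some bases from the one used in these cells.

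The motifs CTTTCC and CCGGAAG were also more frequent than in other promoters. The hexamer CTTTCC, searched on the gene strand in the 50 bases around the start, occurred in 15.4% of member windows and 2.46% of all windows. On both strands of the 300 bases, CTTTCC occurred in 51.3% against 26.6%, and CCGGAAG, the core bound by ETS factors, in 34.6% against 8.86%. TATAAA, the TATA box, occurred in the 300 bases of 8.97% of member windows and 13.6% of all. In the 50 bases around the start, on both strands, the order was reversed. There TATAAA occurred in 3.85% of member windows (3 of 78) and 1.50% of all. These are matches of letters, and the last letters of CTTTCC can also be the first of CCGGAAG.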

How the data were processed

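TRAP RNA from gastrocnemius and soleus was analysed as 3 vehicle and 3 E2 libraries, grouped by the labels. The authors' tools were bcl2fastq (2.17), FastQC (0.11.2), STAR (2.5.3a) on mm10 and featureCounts in Subread (1.6.0), as named in the paper and, for versions, the submitters' processing notes. What they deposited are raw counts for 24062 gene symbols. The sources used here give neither strand nor multiple-overlap settings, so reads of overlapping genes cannot be told apart. The labels name a stranded total RNA kit and the paper a ribosome profiling kit.

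Counts were filtered with filterByExpr, which kept 1682 genes, scaled by TMM and tested with the quasi-likelihood test of edgeR (4.0.16) in R (4.3.3), with Benjamini-Hochberg adjustment over all genes tested. A standard error is the log2 fold change divided by the root of its F. CPM refer to the total count of a library, of which the ribosomal RNA gene Rn45s took 28.5% to 42.9%. Totals of 84823 to 451034 counts mean that a count of 0 allows up to 3 counts, or 35.4 CPM in vehicle 3 and 6.65 CPM in vehicle 2. An exact permutation test of 3 against 3 libraries cannot go below 0.1 and was not used.

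Members, gene lists and the naming rule were chosen with earlier results of these data known. Named genes were those called, those separated between groups at an unadjusted p of 0.05 or less, the 5 of each subunit highest in CPM per kilobase, the 3 with the largest change in each direction, the tagged protein, stalk proteins, paralog pairs, members with other known roles, and called genes of the lists. Rpl18, Rpl21, Rps2, Rps18, Rps27rt, Rpl19, Rpl34, Kdr, Cd36, Cdh5, Mrpl48, Eef1a1, Eef1b2, Eef2, Fau and opposite-strand genes were named after their values were seen. Lists of smooth muscle and pericyte, fibroblast, adipocyte, immune and erythroid markers were also summed. Positions and lengths are from GENCODE M21 (mm10), in which all 87 members were matched, and promoter windows are from RefSeq. Alternatives covered the filter, the scaling, DESeq2 (1.42.0), limma-voom (3.58.1), a likelihood ratio test, the replicate number as a block, length and GC offsets, and libraries left out. Some genes that the naming rule covers are not reported here.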

Additional observations from a re-analysis of the deposited data

How the results depend on the processing

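Counts of members called higher and lower are given here with those of all genes tested in the same form, against 8 and 1 of 45 members and 42 and 50 of 1682 genes. They were 4 and 1 of 85 members without a filter on low counts (31 and 132 of 14057 genes), 1 and 0 of 16 with at least 10 counts in every library (Rpl28; 11 and 0 of 578 genes), 4 and 1 with library totals only (33 and 90), 7 and 0 with limma-voom (63 and 9), 5 and 1 with length and GC offsets (36 and 50 of 1663), and 3 and 0 without vehicle 1 and vehicle 2 (6 and 1 of 1907). The likelihood ratio test called 15 and 1 (105 and 152 of all 1682 genes), and DESeq2 7 and 1 (47 and 49). Deviations from the group mean, in libraries of the same replicate number, correlated at -0.13, 0.026 and -0.20. With few libraries and vehicle 3 apart, these values cannot decide whether replicate numbers pair the libraries. With the replicate block 0 were higher and 0 lower (7 and 1 of all genes), and with the block and the offsets also 0 and 0 (4 and 1), while 36 of 45 members stayed above 0 with the block. Leaving out 1 library gave 0 to 28 higher and 0 to 6 lower, with 28 and 6 without vehicle 3, where 477 and 526 of all 2162 genes were called. At an unadjusted p of 0.05 or less, where 21 were higher and 2 lower, 7 of the 16 tested were higher with 10 counts in every library, where fewer members were tested. Here the lower count was 5 without a filter, 1 with 10 counts in every library, DESeq2, limma-voom or the block, 4 with offsets, 1 to 7 with 1 library left out and 0 without vehicle 1 and vehicle 2. The median log2 fold change was 0.62 to 1.17 in all these forms. The median of all genes was -0.15 with library totals, against which the members' median was 0.80.

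The difference of subunit medians (0.12) turned to -0.55 without a filter, -0.39 with 10 counts in every library, -0.11 without vehicle 1 and vehicle 2, -0.0083 with offsets and block, and ranged from -0.26 to 0.11 with 1 library left out. The log2 ratio of summed CPM (0.41) was 0.18 without vehicle 3, 0.23 without E2 2 and 1.01 without vehicle 1 and vehicle 2. In the last form the log2 fold change also changed sign in Rpl19 (0.46), Rpl22 (0.21), Rpl23a (1.22), Rpl24 (1.37), Rpl32 (0.22), Rps25 (0.029), Rplp2 (0.051), Rpl5 (-0.14) and Rpl7 (-0.072). Genes near 0 changed sign in other forms. Rpl36a was -0.098 without a filter, -0.22 with 10 counts in every library, -0.15 with library totals, -0.26 with offsets, -0.18 with offsets and block, and -0.14 to 0.29 with 1 library left out. Rpl5 was -0.081, -0.19, -0.18, -0.0017 and -0.047 in the same forms, -0.0072 with the block, and -0.19 to 0.31 with 1 library left out. Rpl10a ranged from -0.016 to 1.03 with 1 library left out, and Rps3a1 was -0.047 with offsets. The causes were not tested. Depth limits the 42 untested members and every value that rests on a few counts in vehicle 3.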

Other observations

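Lists of other cell types were summed in CPM over the 6 libraries. The 9 fibroblast markers lay between 517 and 660 CPM, and the 10 smooth muscle and pericyte markers between 326 and 817 CPM. The 8 adipocyte markers lay between 818 and 2434 CPM, the 12 immune markers in the table between 47.6 and 212 CPM and the 7 erythroid markers between 7.94 and 75.6 CPM. No immune or erythroid marker was counted well enough to be tested. Of the 4 fibroblast, 2 smooth muscle and 2 adipocyte markers that were tested, none passed the adjusted p (edgeR), and 1 smooth muscle gene was lower at an unadjusted p of 0.05 or less. Sphk2, which shares 373 exonic bases with Rpl18 on the opposite strand, had 1786 counts against 24 of Rpl18, and Nkiras1, opposite Rpl15 over 105 bases, had 340 counts against 27.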
